A study of Homo sapiens with 12 samples.

Results

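To assess how added p30 relates to open chromatin under endoplasmic reticulum stress, the accessible regions of KO-52 cells carrying p30 were set against those of KO-52 cells carrying an empty vector (EV), both after tunicamycin. The pooled peak list of each condition was restricted to chromosomes 1 to 22 and X, and peaks sharing at least 1 bp were merged. Of 231226 merged regions, 146965 held a peak in both lists (shared), 36785 held a peak only in p30 cells (p30-only) and 47476 only in EV cells (EV-only). These are part of the 355051 regions obtained when all 6 lists of the series are merged.

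KO-52 is an acute myeloid leukemia line that carries mutations on both CEBPA alleles, and all groups share this background. The EV group and the p30 group after tunicamycin each comprised 2 ATAC-seq libraries, treated with tunicamycin at 2 µg/mL for 8 h. The same lines in DMSO, the solvent control, and a line expressing p42, also in both treatments, gave 4 further lists. For long-term expression the study's methods describe p30 and p42 as ERT2 fusions in cells sorted for GFP, and state that 4-hydroxytamoxifen, which brings such fusions into the nucleus, was added on the day before an experiment, also to empty vector controls. By the methods, replicates were distinct samples; the labels do not say whether they came from separate cultures. Replicates were pooled before peak calling, so there is no spread between replicates, no test over samples can be made, and no difference can be set against library error. Intervals in brackets are 95% Wilson intervals for a share, or Newcombe intervals for a difference; they treat regions as independent and cover counting error only.

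CEBPA is a bZIP transcription factor required for granulocyte and monocyte development. Its transcript gives a long protein, p42, and a shorter protein, p30, which keeps the DNA-binding domain but lacks N-terminal transactivation domains. Tunicamycin blocks DPAGT1, the first enzyme of N-linked glycosylation, so that unfolded proteins accumulate and the kinase PERK (EIF2AK3) raises translation of ATF4. ATF4 binds composite sites with C/EBP proteins, AP-1 dimers bind a related site, and PU.1 (an ETS factor) and GATA factors mark the granulocyte-monocyte and the erythroid, megakaryocyte and mast cell branches, respectively.

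The following sequences show the kinds of regions on which the comparison turns. The first is the p30-only region beside CEBPA itself. The others are, by -log10 q, the strongest regions of at most 300 bp with the motif inside the peak itself: CEBP:ATF4 among p30-only regions with no peak in either line in DMSO, ETS among p30-only regions with the same state in DMSO, and GATA and AP-1 among EV-only regions with the same state in DMSO. Capitals mark only the motif named in each label, on either strand, and other motifs are left unmarked. The EV-only MOCS1 region, for example, also holds ETS letters in lower case. The CEBPA region held none of the AP-1, CEBP, CEBP:AP1, ETS, GATA or RUNX letters searched. All are the hg38 plus strand.
CEBPA upstream, chr19:33304850-33304936, p30-only: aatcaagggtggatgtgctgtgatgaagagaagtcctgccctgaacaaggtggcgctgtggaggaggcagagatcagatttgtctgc
SIX2, 170744 bp upstream, chr2:45180144-45180303, p30-only, CEBP:ATF4: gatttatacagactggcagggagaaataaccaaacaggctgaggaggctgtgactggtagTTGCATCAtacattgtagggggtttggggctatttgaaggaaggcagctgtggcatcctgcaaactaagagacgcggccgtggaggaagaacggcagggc
G3BP2 intron, chr4:75696202-75696288, p30-only, ETS: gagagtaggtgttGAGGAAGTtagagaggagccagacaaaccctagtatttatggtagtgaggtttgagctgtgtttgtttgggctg
SP4, 19411 bp upstream, chr7:21408575-21408680, p30-only, ETS: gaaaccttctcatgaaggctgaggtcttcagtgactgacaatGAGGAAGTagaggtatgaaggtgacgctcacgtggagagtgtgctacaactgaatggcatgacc
TTC28 intron, chr22:28329766-28329873, EV-only, GATA: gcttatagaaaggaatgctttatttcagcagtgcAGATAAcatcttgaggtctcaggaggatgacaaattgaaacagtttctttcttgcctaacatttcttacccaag
MOCS1, 99134 bp upstream, chr6:40033636-40033755, EV-only, GATA: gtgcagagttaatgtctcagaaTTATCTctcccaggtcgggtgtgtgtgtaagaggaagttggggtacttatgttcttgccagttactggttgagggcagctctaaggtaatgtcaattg
PTPRR intron, chr12:70756253-70756358, EV-only, AP-1: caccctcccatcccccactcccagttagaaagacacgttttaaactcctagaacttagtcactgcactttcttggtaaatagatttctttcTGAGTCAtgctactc

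p30 and EV cells had most accessible regions in common. p30-only regions made up 15.9% of all merged regions and EV-only regions 20.5%, leaving 63.56% shared [63.36 to 63.75]. The EV list was the longer, with 200633 peaks against 187364, and its depth, estimated from the lowest local background, was higher, 25130000 against 23080000 tags. When the strongest 187364 peaks of each list were compared, the order turned around, with 40659 p30-only and 38507 EV-only regions. Which line held more exclusive regions therefore changed with the number of peaks taken.

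The exclusive regions lay close to the limit of peak calling. The number of tags piled up at each summit was recovered from the fold enrichment and p-value of the peak. p30-only regions had a median of 6 tags at the summit, and EV-only regions also had a median of 6. Shared regions had a median of 13 tags in p30 and 14 in EV cells. By rank of -log10 q within the list, 95.7% of p30-only and 96.3% of EV-only regions ranked under percentile 50 of their list, against 36.7% and 36.0% of shared regions in p30 and EV cells. Only 146 p30-only and 250 EV-only regions reached -log10 q of 10, compared with 69886 shared regions in p30 and 73553 in EV cells. Exclusive regions were also narrower, with a median peak width of 76 bp for p30-only and 78 bp for EV-only against 175 bp for the p30 peak of shared regions.

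**Figure D1:**
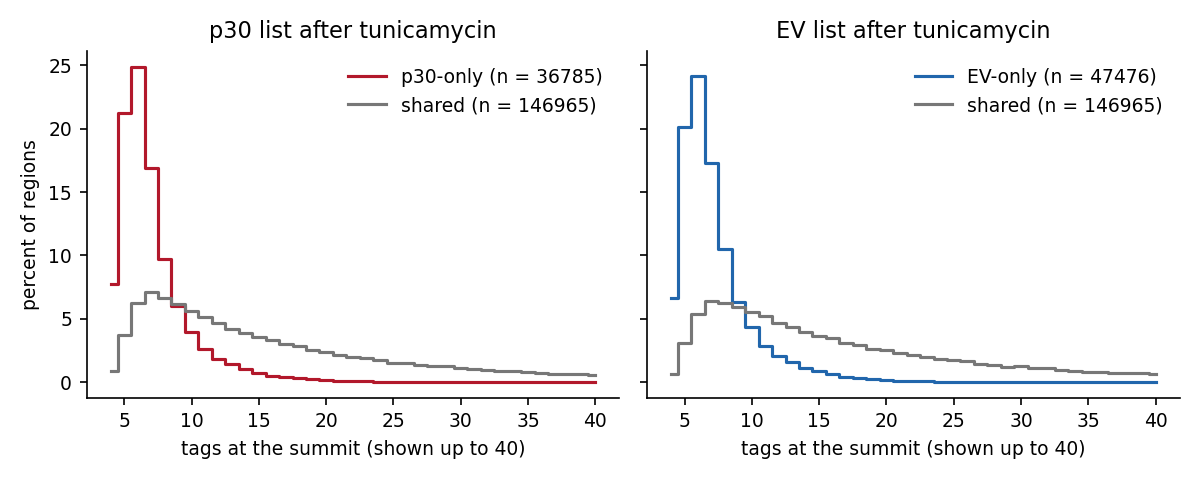
Tags at the summit of the strongest peak of each region (x axis, shown up to 40) against the percent of regions of that class (y axis), in the p30 list (left) and the EV list (right) after tunicamycin. Both kinds of exclusive region pile up at a median of 6 tags, whereas shared regions spread up to 110 tags in p30 and 111 in EV cells.

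p30-only and EV-only regions occupied the same kinds of genomic place. A promoter, here 1000 bp on each side of an annotated transcript start, was overlapped by 13.5% of p30-only [13.1 to 13.8] and 13.8% of EV-only regions [13.5 to 14.1]. Shared regions were at a promoter in 23.3% [23.1 to 23.5]. Introns held 49.4% of p30-only and 49.8% of EV-only regions, and intergenic sequence held 33.7% and 33.1%. The median distance to the nearest start was 11246 bp for p30-only, 11139 bp for EV-only and 7354 bp for shared regions. GC content around the summit averaged 46.5% in both exclusive classes (SD over regions 8.8 and 9.2) and 49.6% in shared regions (SD 10.9). About equal shares lay within 1000 bp of a shared region, 27.2% of p30-only [26.8 to 27.7] and 27.0% of EV-only [26.6 to 27.4]. Among exclusive regions at promoters this share was 55.8% for p30-only [54.4 to 57.1] and 55.7% for EV-only [54.5 to 56.9].

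Along the genome the ratio of p30-only to EV-only regions was 0.775 and ranged from 0.645 on chromosome 12 to 0.853 on chromosome 13. Chromosome 13 stood out for the share of regions that were exclusive to either line, 46.1% against 36.4% genome-wide, followed by chromosome 8 at 40.5%. The lowest share, 25.6%, was on the gene-dense chromosome 19.

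To ask whether the difference between the lines was already there without stress, the same regions were looked up in the DMSO lists, which come from other libraries. Of p30-only regions, 19.8% were called in DMSO in p30 but not in EV cells [19.4 to 20.3], against 10.5% of all merged regions. The opposite state, called in EV but not in p30 cells, applied to 11.4% of p30-only regions [11.1 to 11.7], against 6.62% of all merged regions. Both DMSO lists held a peak in 20.6% and neither did in 48.2%. The background shares are low because strong regions were called in both DMSO lists. Among weak regions, at -log10 q under 3, the p30 state in DMSO applied to 17.8% of p30-only and 17.3% of all merged regions, and at 3 to 5 to 20.6% and 19.5%. Under -log10 q of 5 p30-only regions thus lay close to all regions, although under 3 only 2082 of the 32258 merged regions were shared. Stronger p30-only regions lay above all regions of their bin. At 5 to 7 the p30 state applied to 22.5% of p30-only and 15.8% of all merged regions. At 10 or more these shares were 16.4% and 0.5%. The opposite state was also more frequent in p30-only regions, with 12.7% against 9.7% at 5 to 7 and 6.8% against 0.2% at 10 or more.

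For EV-only regions the order was the other way around. In DMSO 13.0% were called in EV but not in p30 cells [12.7 to 13.3], fewer than the 17.9% with the opposite state [17.6 to 18.3]. The p30 DMSO list was longer than the EV DMSO list, 207005 against 187113 peaks, and deeper, 26530000 against 22250000 tags by the same estimate. With the strongest 187113 peaks of each DMSO list, the same state was found in 16.2% and the opposite in 13.5% of p30-only regions. For EV-only regions these shares became 15.4% and 14.6%, so the order turned around here too. At -log10 q of 3 to 5 with the full lists, the EV state applied to 13.8% of EV-only and 12.6% of all merged regions. At 7 to 10 these shares were 12.2% and 4.2%, and those of the opposite state were 18.0% and 7.6%. Over both classes, 13458 exclusive regions had the same and 12693 the opposite state in DMSO, so that 51.5% of those with either state were the same [50.9 to 52.1].

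The stronger an exclusive region was after tunicamycin, the more often both lines had a peak there in DMSO. At -log10 q under 3 the share with both DMSO peaks was 13.9% for p30-only and also 13.9% for EV-only regions, and at 10 or more it was 69.2% in each class [61.3 to 76.1 and 63.2 to 74.6]. Correspondingly, regions with no DMSO peak in either line went from 57.8% to 7.5% of p30-only and from 58.5% to 8.4% of EV-only regions. Most of the strongest exclusive regions were therefore open in both lines under DMSO. A DMSO peak that overlaps a region need not have its summit there. The summit lay inside the region for 72.7% of p30-only regions with a p30 DMSO peak [72.0 to 73.4], 63.5% of those at promoters and 90.4% of those at -log10 q of 10 or more. For EV-only regions with an EV DMSO peak the shares were 72.7%, 63.4% and 92.7%.

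**Figure D2:**
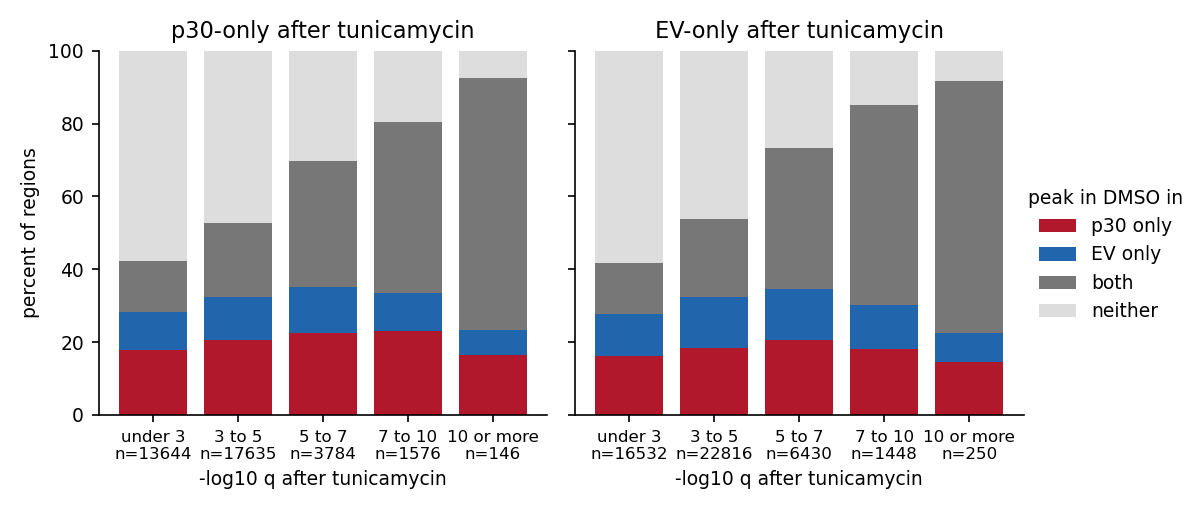
Percent of p30-only (left) and EV-only regions (right), by -log10 q after tunicamycin (x axis, with the number of regions), that had a DMSO peak in p30 cells only, EV cells only, both or neither. The share with a peak in both DMSO lists reaches 69.2% in the strongest bin of each panel.

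The p42 lists gave a further view from other libraries. After tunicamycin p42 cells had a peak in 36.8% of p30-only [36.3 to 37.3] and 36.6% of EV-only regions [36.2 to 37.1], against 89.5% of shared regions. The exclusive classes thus differed here by less than their intervals. Of the 7301 regions that were p30-only in both treatments, 33.6% were called in p42 cells in both treatments and 35.1% in neither. Of the 6157 that were EV-only in both treatments, 29.9% were called in p42 cells in both treatments and 37.9% in neither. A peak in no other list of the series was the case for 30.8% of p30-only and 30.0% of EV-only regions.

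Exclusive regions of the lines differed in a few sequence motifs. A total of 18 motifs were searched on both strands within 100 bp of the summit, by exact letters. The GATA letters AGATAA were present in 10.8% of p30-only [10.5 to 11.1] and 13.3% of EV-only regions [13.0 to 13.6], beside 11.0% of shared and 11.4% of all merged regions. The difference, p30-only minus EV-only, was -2.54 percentage points [-2.98 to -2.10]. It was -2.70 points with equal numbers of peaks, -3.83 points at -log10 q of 5 or more and -9.21 points [-15.7 to -1.91] at 10 or more, where 9.59% of p30-only and 18.8% of EV-only regions held the letters. In the DMSO libraries, regions called only in p30 cells held them in 10.7% and regions called only in EV cells in 13.2%. Both treatments thus gave a GATA motif more often in the EV-only class. The share was 15.9% in EV-only regions with the same state in DMSO and 9.49% in p30-only regions with the same state.

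The AP-1 letters TGAGTCA, bound by FOS and JUN dimers, were likewise more frequent in EV-only regions, 10.3% against 9.21% of p30-only and 10.6% of all merged regions. This difference was -1.13 points [-1.53 to -0.723] after tunicamycin and -2.74 points [-3.16 to -2.32] in DMSO. The GC box GGGCGGG was present in 2.60% of p30-only, 3.23% of EV-only and 7.97% of shared regions, and in 6.15% of all. CTCF, which organizes chromatin loops, was at 2.08% and 2.09% in the exclusive classes and 7.04% in shared regions.

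Of the C/EBP-related motifs, the composite CEBP:ATF4 letters TGATGCAA were present in 1.25% of p30-only [1.14 to 1.36] and 0.920% of EV-only regions, and in 1.01% of all merged regions. The difference was 0.325 points [0.184 to 0.469]. The shares were highest among regions without a DMSO peak in p30 or EV cells, where 1.51% of p30-only and 1.18% of EV-only regions held the letters. The palindromic C/EBP letters TTGCGCAA or TTGCACAA were at 1.07% in p30-only and 0.914% in EV-only regions, with a difference of 0.152 points [0.0172 to 0.289], and the CEBP:AP1 letters TGTTGCAA at 0.807% and 0.779%. The ETS letters GAGGAAGT, a PU.1-type site, were present in 6.43% of p30-only and 6.05% of EV-only regions. That difference of 0.382 points [0.0532 to 0.713] was 0.137 points [-0.206 to 0.479] with equal numbers of peaks, where its interval spans 0.

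**Figure D3:**
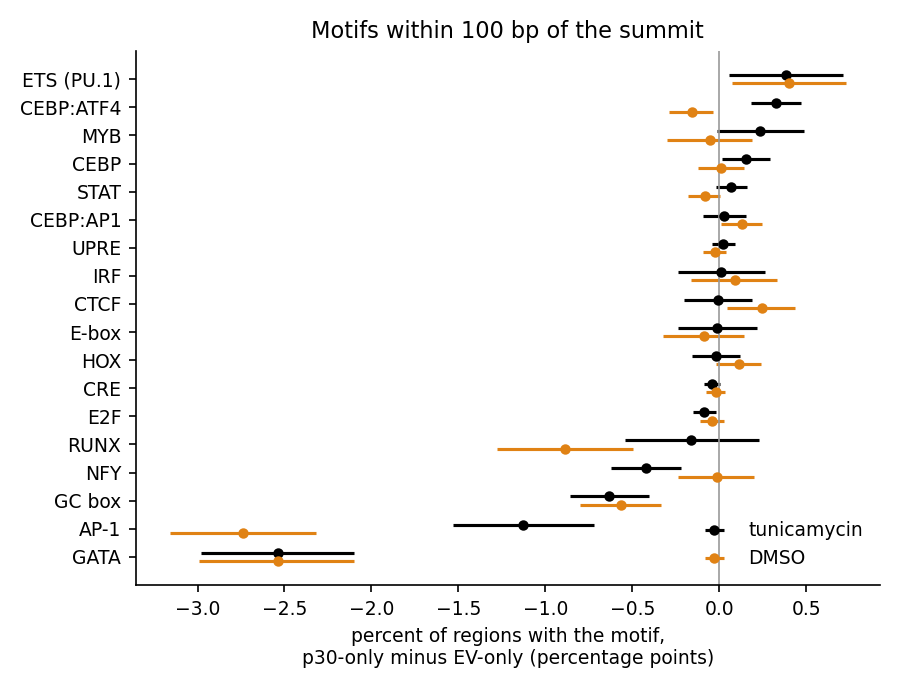
Difference in the percent of regions with each motif, p30-only minus EV-only (x axis, percentage points), for 18 motifs (y axis) after tunicamycin (black) and in DMSO (orange); bars are 95% Newcombe intervals for counting error. GATA lies at -2.54 after tunicamycin and AP-1 at -1.13, both below 0 in each treatment, while CEBP:ATF4 lies at 0.325 after tunicamycin and at -0.159 in DMSO.

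Shared regions offered a graded readout. In the 67786 shared regions with a mean of at least 15 summit tags, the log2 ratio of tags per estimated depth, p30 over EV, had a median of 0.07 and quartiles of -0.10 and 0.23. Ratios are given relative to this median from here on. Only 125 regions differed by more than 1 on the log2 scale, 2109 were higher in p30 by 0.5 or more and 2559 were higher in EV by 0.5 or more.

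The GATA letters were present in 14.4% of the regions higher in EV by 0.5 or more [13.1 to 15.8], in 8.29% of those within 0.25 and in 8.25% of those higher in p30 by 0.5 or more. ETS ran the other way, from 6.33% in the regions higher in EV to 8.82% in those higher in p30 [7.68 to 10.1]. AP-1 was at 11.6% and 9.58% in these same bins, with intervals that overlap [10.4 to 12.9 and 8.39 to 10.9]. These bins differ in other ways as well. Promoters made up 22.3%, 38.2% and 21.2% of the regions higher in EV, within 0.25 and higher in p30. Outside promoters, the median log2 ratio of regions with the GATA letters was lower by 0.03 than that of all regions after tunicamycin and by 0.05 in DMSO. That of ETS regions was higher by 0.06 and 0.03.

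The bins set after tunicamycin carried over only weakly to DMSO. Regions higher in p30 by 0.5 or more had a DMSO median of 0.08 on the log2 scale, and 29.1% of them were higher in p30 by over 0.25 in DMSO while 16.5% were higher in EV. Those higher in EV by 0.5 or more had a DMSO median of -0.06, with 29.3% higher in EV and 16.9% higher in p30.

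**Figure D4:**
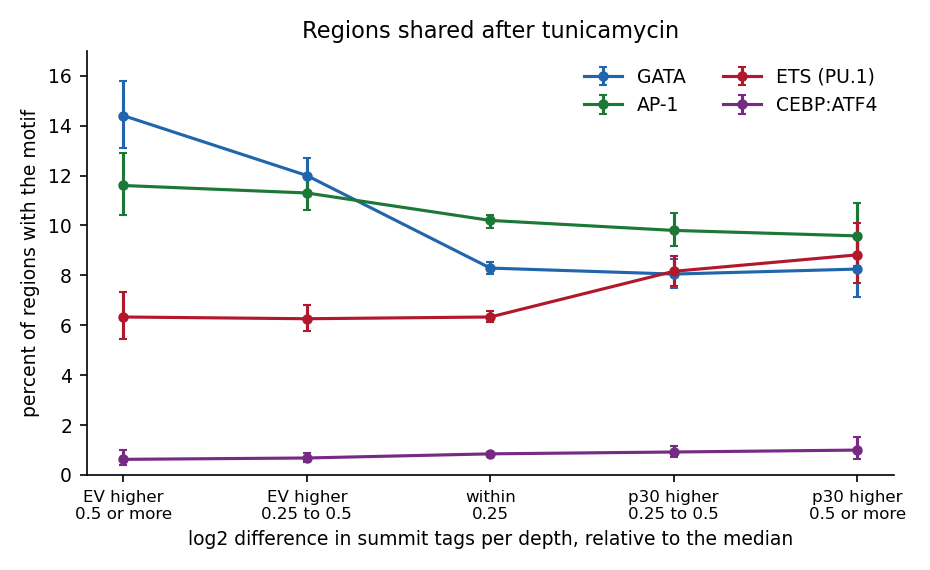
Percent of shared regions with 4 motifs (y axis, with 95% Wilson intervals) in 5 bins of the log2 difference in summit tags per depth, relative to the median (x axis, from higher in EV to higher in p30). GATA goes from 14.4% to 8.25% and ETS (PU.1) from 6.33% to 8.82%.

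Single shared regions with the widest gap in rank illustrate the size of such differences. At 6108 bp upstream of TNFRSF10A, a TRAIL death receptor, the region chr8:23230974-23231404 had 29 summit tags in p30 and 10 in EV cells. Under DMSO these were 17 and 19, so that p30 was above EV only after tunicamycin. An intron of FRMD4B had 24 against 11 tags and an intron of GRIN2B 25 against 11. On the EV side, the region 13471 bp upstream of RPL5, a ribosomal protein gene, had 7 tags in p30 and 23 in EV cells, beside 15 and 14 in DMSO. The region 18646 bp upstream of PIK3R1, the regulatory subunit of PI3-kinase, had 10 against 25 tags and kept this order in DMSO with 12 against 23.

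Among exclusive regions, the 10 strongest p30-only ones by -log10 q included none at a promoter. The region 37880 bp upstream of ASAP2 (chr2:9168830-9168939) had 18 tags after tunicamycin in p30 cells and no peak in EV cells. In DMSO the p30 cells had 17 tags there and the EV cells 15. The intronic region of STK17B, a kinase linked to apoptosis (chr2:196158900-196159006), had 23 tags, and in DMSO 8 tags were found in p30 against 16 in EV cells. The region 65686 bp upstream of RREB1, a zinc finger factor of the RAS pathway (chr6:7041859-7041948), held ETS letters and had 17 tags and no DMSO peak in p30 or EV cells. Of the 10 strongest p30-only regions, GPD2 alone had the same state in DMSO: 16 tags after tunicamycin and 6 in DMSO in p30 cells, no peak in EV cells, and 13 and 15 tags in the p42 lists.

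With the state kept in DMSO, the strongest p30-only regions after GPD2 were in introns of KRIT1 (14 tags, 7 in DMSO), G3BP2 (18 and 11) and ADD1 (16 and 9). G3BP2 encodes a stress granule protein, and its region, printed above, had no peak in either p42 list. The ADD1 region had 10 tags in both p42 lists.

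The strongest EV-only region was in an intron of SLC24A2 (chr9:19671274-19671558) with 18 tags in EV cells, GATA and ETS letters, and DMSO peaks of 8 tags (p30) and 13 tags (EV). An intron of RAD51B, a DNA repair gene, also had 18 tags, beside 10 and 13 in DMSO. The region 102795 bp upstream of KLF6 (chr10:3888018-3888134) held AP-1 letters and had 16 tags, with 7 and 9 in DMSO. COL28A1 was the only 1 of the 10 strongest EV-only regions with the same state in DMSO: its intron (chr7:7521380-7521519), with GATA letters, had 16 tags after tunicamycin and 8 in DMSO in EV cells and no p30 peak. In p42 cells it had 8 and 7 tags, so it was not particular to EV cells. An intron of GSG1L had 13 tags in both EV lists and 7 in both p42 lists. The region 19031 bp upstream of RGS16, a regulator of G-protein signalling, had 16 and 14 tags in the EV lists.

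At the CEBPA locus, most accessible regions were shared. The promoter region had 45 summit tags in p30 and 39 in EV cells after tunicamycin and 44 and 39 in DMSO. The region chr19:33304850-33304936, printed above, 2364 bp upstream of the start in a noncoding exon, was p30-only. It had 18 tags after tunicamycin and 20 in DMSO in p30 cells, and 16 and 18 in p42 cells, with no peak in either EV list. It ranked at percentile 36.2 of the p30 list. Regions called only in EV cells lay 34535 bp upstream of SLC7A10 with 14 tags and near CEBPG with 4 tags, both without DMSO peaks in p30 or EV cells.

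**Figure D5:**
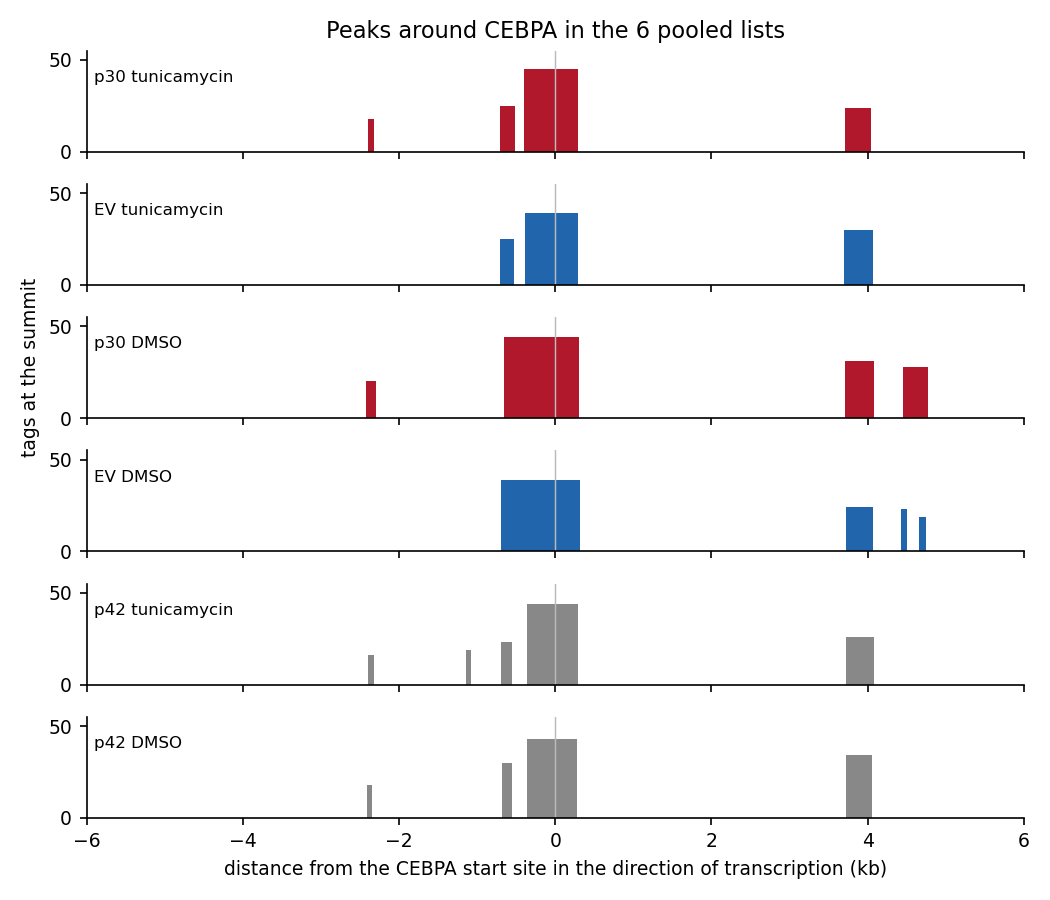
Peaks around the CEBPA start site in the 6 pooled lists (x axis, distance in kb in the direction of transcription; y axis, tags at the summit; bar width, peak width). The upstream peak at 2364 bp is present in both p30 lists, at 18 and 20 tags, and in both p42 lists, and in neither EV list.

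At the level of genes, 16.3% of 19962 protein-coding genes had a p30-only and 21.2% an EV-only region at a promoter, and 5.31% had both. A shared promoter region was present in 77.4% of genes. Of the genes with a p30-only promoter region, 89.4% also had a shared one, as did 88.9% of those with an EV-only region. Exclusive promoter peaks thus mostly lay at genes that also had a shared promoter region, as did 77.4% of all genes. The shared region can be at another start of the gene. Within 1000 bp of a shared region lay 55.8% of p30-only and 55.7% of EV-only promoter regions. Beside a large peak the local background is high, and summits with many tags can rank low: the JUNB region described next had 21 tags and ranked at percentile 26.3. DMSO tags given for promoter regions are those of the overlapping peak, whose summit may be outside the region. Counts for the gene lists are to be read against the shares of all genes, 16.3% and 21.2%.

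Promoters of 12 of 13 myeloid markers had a shared region, but so had 4 of 5 T-cell, 4 of 5 B-cell and 5 of 6 fibroblast and epithelial markers, so that a peak at a promoter does not single out a cell type. Erythroid and megakaryocyte markers had 1 of 8.

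Of the FOS and JUN family, all 14 promoters were shared. JUNB had in addition a p30-only region of 21 tags, with 19 in DMSO in p30 and none in EV cells, and FOSL1 and BATF2 had EV-only regions of 11 and 5 tags. In the C/EBP family all 6 promoters were shared. CEBPB had a p30-only region of 16 tags in its coding exon, where DMSO tags were 29 in p30 and 26 in EV cells.

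Of 25 genes of the integrated stress response, 2 had a p30-only and 5 an EV-only promoter region. ATF4 had an EV-only region 269 bp upstream of its start (chr22:39519389-39519467) with 21 tags, and in DMSO both lines had a peak over it, with summits of 46 tags in p30 and 43 in EV cells. DDIT4, an inhibitor of mTORC1, had a p30-only region of 18 tags, with 17 and 15 in DMSO. MTHFD2, an enzyme of mitochondrial one-carbon metabolism, had an EV-only region of 16 tags with no peak in any other list. PHGDH, the first enzyme of serine synthesis, VLDLR and the GCN2 gene EIF2AK4 had EV-only regions too.

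Among 26 ER chaperone, unfolded protein response and ERAD genes, 4 had p30-only and 5 EV-only promoter regions. XBP1, the stress transcription factor spliced by IRE1, had a p30-only region of 15 tags, and also 15 in DMSO in p30 cells with none in EV cells. The ubiquitin ligase gene SYVN1 showed the same pattern, with 19 and 15 tags. The p30-only regions of HSP90B1 and PDIA3 did not keep their state. That of HSP90B1, of 7 tags, had a DMSO peak of 8 tags in EV cells only. That of PDIA3, of 18 tags, had DMSO peaks of 13 tags in p30 and 35 in EV cells. ERN1, which encodes IRE1, had an EV-only region of 10 tags, while DMSO tags were 38 in p30 and 37 in EV cells. DNAJC3, HYOU1, CANX and EDEM1 each had an EV-only region beside shared ones at the promoter. Of these EDEM1 had 2 EV-only regions, 1 of them with 34 tags in EV cells in DMSO and no p30 peak. The DNAJC3 and CANX regions had the opposite state, with DMSO peaks in p30 cells only, of 63 and 14 tags. The EV-only regions of ERN1 and DNAJC3 ranked at percentiles 2.8 and 0.2 of the EV list.

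Of 26 N-glycosylation genes, 3 had p30-only and 6 EV-only promoter regions. DPAGT1, the target of tunicamycin, had one of each: a p30-only region of 19 tags and an EV-only region of 18 tags. In DMSO their order was crossed, since the first had 15 tags in EV cells only and the second 20 tags in p30 cells only. STT3A and STT3B, the catalytic subunits of oligosaccharyltransferase, had EV-only regions of 15 and 25 tags, both with a DMSO peak in p30 but not in EV cells.

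Of 25 cytokine, chemokine and mediator genes, none had a p30-only promoter region, and IL18 and TNFAIP3, the A20 inhibitor of NF-kB, had EV-only promoter regions of 11 and 20 tags. The TNFAIP3 region held AP-1 letters and had a DMSO peak of 16 tags in EV and none in p30 cells, thus the same state in both treatments. The IL18 region had the opposite state, with a DMSO peak of 8 tags in p30 and none in EV cells. Of 9 NF-kB genes, REL had a p30-only promoter region of 14 tags and NFKBIZ an EV-only promoter region of 17 tags, neither with a DMSO peak in p30 or EV cells. Of 18 interferon-stimulated genes, 5 had p30-only and 4 EV-only promoter regions, and OAS1 and RSAD2 had both.

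Among 22 myeloid transcription factors, 4 had p30-only (GATA2, FLI1, EGR1 and NR4A2) and 7 EV-only promoter regions. GATA2, a factor of stem and mast cells, had EV-only regions of 20 and 22 tags and a p30-only region of 20 tags, none with a peak in the DMSO lists of p30 or EV cells. KLF4, IRF8, LMO2, ZEB2 and KLF6 had EV-only regions of 9 to 15 tags, all without DMSO peaks in p30 or EV cells. MYB had an EV-only region of 16 tags, at percentile 2.7 of the EV list, with a DMSO peak of 16 tags in p30 cells only. The p30-only region of EGR1 had a DMSO peak in EV cells only, that of NR4A2 in both lines and that of FLI1 in neither. Of 20 stem cell regulators, 7 had p30-only and 9 EV-only promoter regions. HOXA7 had an EV-only region of 24 tags, and HOXA9 and HOXA10 shared another of 18 tags that held CEBP letters. These regions ranked low in the EV list, at percentiles 11.9 and 14.1. Both were absent from the DMSO lists of p30 and EV cells and present in both p42 lists, at 28 and 28 tags for HOXA7 and 22 and 21 for HOXA9 and HOXA10.

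Of 21 granule protein genes, 4 had p30-only and 6 EV-only promoter regions. PRTN3, the gene of proteinase 3, had a p30-only region of 7 tags with ETS letters 64 bp upstream, with 9 tags in DMSO in p30 and none in EV cells, and an EV-only region of 6 tags with 7 in DMSO in EV and none in p30 cells. LYZ, the lysozyme gene, also had both, each of 7 tags, but neither kept its state. Its p30-only region had a DMSO peak of 6 tags in EV cells only, and its EV-only region had none in p30 or EV cells. Of 19 cell death genes, 5 had p30-only and 6 EV-only promoter regions, and BAK1, CASP4 and CASP8 had both.

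A list of 14 receptor genes held mainly growth factor and cytokine receptors, with the chemokine receptors CXCR2 and CXCR4 and the transferrin receptor TFRC. Of these genes, 4 had p30-only and 5 EV-only promoter regions. In the wider loci, 50 kb on each side of the genes, 42 regions were p30-only and 39 EV-only of 293, or 14.3% and 13.3% beside 15.9% and 20.5% of all merged regions. Counting only regions with the same state in DMSO, 12 were p30-only and 1 was EV-only, beside 7301 and 6157 over all regions. This list was singled out after its values were seen. Other lists were skewed as well, with 7 against 1 for the loci of B-cell markers and 12 against 6 for myeloid markers, and in the other direction with 7 against 11 for the integrated stress response and 6 against 11 for cytokines. The myeloid marker list also holds CSF3R, KIT and FLT3, so it is not separate from the receptor list. The 12 were spread over CSF3R, CSF2RA, CSF1R, IL3RA, IL6R, KIT, FLT3, EPOR and CXCR2, and 4 of them lay within the receptor gene itself (CSF2RA, IL6R, KIT and FLT3). The KIT intron region had 11 tags after tunicamycin and 19 in DMSO in p30 cells and no peak in the 4 EV and p42 lists. The region in the CSF3R locus lay in an intron of OSCP1 and had 10 and 17 tags in p30 and 22 and 34 in p42 cells. These KIT and CSF3R locus regions ranked at percentiles 14.7 and 11.9 of the p30 list. The others had 5 to 8 tags after tunicamycin and ranked at percentiles 2.8 to 37.0, so that all 12 lay low in the list.

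Loci with the most exclusive regions of the same state in both treatments were mainly long genes, though FLT1 spans only 195 kb. PCDH9, GPC5 and FLT1 lie on chromosome 13, where 46.1% of regions were exclusive to either line. PCDH9, a protocadherin, had 10 p30-only and 2 EV-only regions of this kind, and KIF26B, a kinesin, had 8 and 1. GPC5, a glypican, came high on both sides, with 10 p30-only and 7 EV-only regions. FLT1, a VEGF receptor, had 2 p30-only and 8 EV-only regions, and LRMDA 3 and 7. The transcription factor gene FOXP1 had 7 of each, as had the overlapping gene ENSG00000285708.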

How the data were processed

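ATAC-seq was performed by the authors on 50000 nuclei per library. As the study's methods and the submitters' processing notes describe, reads were trimmed with Trim Galore 0.6.6 and aligned to hg38 with Bowtie2 2.4.4, duplicates marked with Picard were left out, and MACS2 called peaks on the 2 pooled replicates of each condition; a shift of reads for the transposase or removal of mitochondrial reads is not given in the sources used here. The deposited lists give, per peak, the fold enrichment (a ratio over local background), the -log10 p-value and q-value, and the summit offset, with no read counts and no per-replicate values. Lists were merged at 1 bp overlap on chromosomes 1 to 22 and X. Whole summit tags, recovered from fold enrichment and p-value for 100% of peaks (tolerance 0.0001 in log10 p), and the lowest local background, with MACS2's genome size of 2700000000 bp, gave estimated depths of 22250000 to 29980000 tags. Depth so estimated is approximate and carries into every tag ratio. Genes came from GENCODE 44 and motifs were exact letters within 100 bp of the summit. Sequences on chromosome 8 were not considered for printing. Tools were Python 3.11.15, pandas 2.3.3, scipy 1.17.1 and statsmodels 0.14.6, and scripts were tested on simulated data. Intervals are Wilson or Newcombe at 95% and cover counting error only. Named were the 10 strongest p30-only and EV-only regions by -log10 q, the 10 of each with the same state in DMSO, the 5 shared regions each way with the largest percentile gap and a percentile of 90 or more in a list, exclusive promoter regions of the gene lists, regions within 50 kb of CEBPA, and the 5 genes with most such regions; the text gives a selection of these. Members, lists and tests were chosen with earlier results of these data known. Alternatives were other peak numbers, thresholds, overlaps, windows and depth scaling.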

Additional observations from a re-analysis of the deposited data

Results flagged for a closer look

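The composite CEBP:ATF4 letters were more frequent in p30-only than in EV-only regions after tunicamycin, by 0.325 percentage points [0.184 to 0.469], whereas in DMSO the difference between regions called only in p30 and only in EV cells was -0.159 points [-0.288 to -0.0348]. The direction thus differed between the treatments, but each treatment has 1 pooled list per line, and the difference between them was not tested.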

How the results depend on the processing

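No paired analysis was possible because replicates were pooled before peaks were called, and for the same reason no replicate could be left out. Counts of exclusive regions depend on the threshold. At -log10 q of 5 or more with no peak in the other list, 5506 p30-only and 8128 EV-only regions remained, at 10 or more 146 and 250, and at 5 or more in both lists before merging 17043 and 23074. Other counts stayed within 1.5 times of those reported, but equal peak numbers turned the order of the classes. Promoter shares (p30-only and EV-only) were 15.1% and 15% at -log10 q of 5, 10.3% and 10.0% at 10, 8.70% and 9.20% with 500 bp, 19.5% and 19.8% with 2000 bp on each side, and 12% and 12% with all 6 lists merged. The share with the same state in DMSO was 22.4% of p30-only and 13.6% of EV-only regions at -log10 q of 5, 16.4% and 8.00% at 10, 19.1% and 12.6% when at least 50% of the shorter peak had to be covered, and 13.3% of EV-only regions with equal peak numbers. With equal DMSO lists, chosen after seeing the data, it was 16.2% and 15.4%. Motif differences, whose alternatives were also chosen after seeing the data, kept their sign under each of them. GATA was at -3.83, -9.21 and -1.55 points at -log10 q of 5, of 10 and with a 50 bp window, AP-1 at -2.48 and -4.13 points at -log10 q of 5 and 10, and CEBP:ATF4 at 0.570 points at 10 and 0.141 points with the 50 bp window. The interval of AP-1 spans 0 at 10, that of CEBP:ATF4 at 5 and 10, and that of ETS at 5 and 10, with equal peaks, with 250 bp and without promoter regions. Of 48 further alternatives for p42, motif and gene values, 14 stayed within the error given and 34 moved beyond it. The cause of these shifts was not tested.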
